A study of Mus musculus with 14 samples.

Results

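The 8 genes Gad1, Gad2, Slc32a1, Gabra2, Gabra4, Gabrb1, Gabrb2 and Gabrg1, which make, package and sense the transmitter GABA, were followed across 5 groups of sorted mouse brain cells. The list was set by name, with no cutoff on their values, although earlier results of these data were known. Every probe set whose platform gene symbol was one of them was taken. That gave 26 probe sets of the 45037 that carry a transcript on the array, and 8 of 18193 genes with a symbol of their own. All cells came from 8-week-old hGFAP eGFP mice, in which a human GFAP promoter drives eGFP, so the reporter marks cells in which that promoter is active and no group is free of the transgene. The diencephalon gave the GFP-positive sort labelled astrocytes (DIEC_GFP, n = 4 arrays). The subependymal zone (SEZ), the layer beside the lateral ventricle where neurons are still born in adults, gave the other 4 sorts. The sorts for GFP together with prominin (SEZ_GFPprom, n = 4), for GFP (SEZ_GFP, n = 2) and for prominin (SEZ_Prom, n = 2) are labelled neural stem, and the sort for CD24 (SEZ_CD24, n = 2) is labelled ependymal. The labels speak of biological replicates and do not mention animals. The p-values therefore reflect only how far these 14 arrays scatter, which may be technical, and the number of arrays limits the precision. The values are array intensities, compared on the log2 scale, and an adjusted p is a Benjamini-Hochberg value over all 45037 probe sets from limma. A bulk sort cannot tell fewer cells of a type from less RNA per cell.

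GABA is made from glutamate by the glutamate decarboxylases, of which Gad1 encodes the form found through the whole cell body and Gad2 the form held mostly at nerve endings. Slc32a1 encodes the vesicular transporter that loads GABA, and glycine, into synaptic vesicles. GABA then opens GABA-A receptors, chloride channels built of alpha, beta and a further subunit, most often gamma. In the adult SEZ, stem cells give rise to neuroblasts that migrate to the olfactory bulb and become mostly GABAergic interneurons, and GABA released by neuroblasts acts on receptors of the astrocyte-like stem cells. Astrocytes carry GABA-A receptors as well, and take up GABA through plasma membrane transporters.

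The labels were set against marker genes first. SEZ_CD24 did not carry the ependymal genes its label names. The summed intensity of the ependymal markers was 517 to 958 on its arrays, against 17285 to 30001 in SEZ_GFPprom and 6674 to 9678 in DIEC_GFP. Foxj1, the regulator of motile cilia, stood at 66 and 48 in SEZ_CD24 and at 575 to 1086 in SEZ_GFPprom. SEZ_CD24 instead held neuroblast markers, summed to 31313 and 48660 where SEZ_GFP gave 30523 to 33610, and microglia markers, summed to 13230 and 26908, above every other array. The neuroblast list includes Cd24a, the gene of the sorted protein, which read 2160 and 3740 in SEZ_CD24. SEZ_CD24 is therefore called the CD24 sort here. DIEC_GFP had the highest astrocyte sums on 3 of its arrays (33863 to 35085), and DIEC_GFP replicate 4 stood apart at 19653. Snap25, which encodes a synaptic vesicle fusion protein of mature neurons, was at 438, 552 and 498 in DIEC_GFP replicates 1, 2 and 3 and at 20 in replicate 4. SEZ_Prom had the highest sums of mature neuron markers (14223 to 14628) and of striatal projection neuron markers (10730 to 11351). It also held mature oligodendrocyte markers, at 34582 to 36397, near DIEC_GFP (32012 to 45237) and above the other SEZ arrays (4745 to 15314). Choroid plexus markers summed to 13423 to 14197 in SEZ_Prom and 9484 to 15388 in SEZ_CD24, against 440 to 9368 on the other arrays.

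Of the 8 genes, 5 differed over the 5 groups, against 16.9% of all probe sets and 22.6% of genes represented by their brightest probe set. The number was 3 without SEZ_CD24 replicate 2 or SEZ_GFP replicate 2. The 5 that differed moved in opposite directions by role. Gad1, Gad2 and Slc32a1 were lowest in mean in the diencephalic sort and highest in mean in the CD24 sort. The lead of the CD24 sort over the next group did not pass for any of them. The receptor genes Gabrb1 and Gabrg1 were highest in mean in the diencephalic sort and lowest in mean in the CD24 sort. Neither end passed against the next group. Gabra2, Gabra4 and Gabrb2 missed the threshold (adjusted p = 0.204, 0.245 and 0.290). Of these, Gabrb2 averaged highest in SEZ_CD24 and Gabra2 and Gabra4 in SEZ_Prom, so the receptor genes did not move as a set. Gad1, Gad2 and Slc32a1 lie on chromosome 2 and Gabrg1, Gabra2, Gabra4 and Gabrb1 on chromosome 5, while Gabrb2 lies on chromosome 11. The sequences upstream of the 5 genes that differed follow, since these genes fell into a pair of opposed patterns. Each is the 250 bases before the annotated start, read 5′ to 3′ on the strand of the gene, from RefSeq on GRCm38.p6, a build the array files do not name. Capitals mark matches on either strand to the homeodomain core TAATTA, the GC box GGGCGG, the letters CCAAT of the CAAT box, the letters TATAAA of the TATA box or the E-box form CACCTG. For Gabrb1 the downstream of 2 annotated starts is shown.
Gad1 (chr2:70561879-70562128, plus strand): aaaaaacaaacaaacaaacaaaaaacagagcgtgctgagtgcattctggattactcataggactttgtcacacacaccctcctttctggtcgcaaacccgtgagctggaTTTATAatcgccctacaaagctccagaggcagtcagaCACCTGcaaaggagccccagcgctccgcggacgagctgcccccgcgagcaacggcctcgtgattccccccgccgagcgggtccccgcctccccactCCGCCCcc
Gad2 (chr2:22622077-22622326, plus strand): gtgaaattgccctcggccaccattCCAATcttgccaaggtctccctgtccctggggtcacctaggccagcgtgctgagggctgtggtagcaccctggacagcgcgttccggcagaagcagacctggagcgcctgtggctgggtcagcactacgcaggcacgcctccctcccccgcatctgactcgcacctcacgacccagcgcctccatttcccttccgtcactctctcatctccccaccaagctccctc
Slc32a1 (chr2:158610508-158610757, plus strand): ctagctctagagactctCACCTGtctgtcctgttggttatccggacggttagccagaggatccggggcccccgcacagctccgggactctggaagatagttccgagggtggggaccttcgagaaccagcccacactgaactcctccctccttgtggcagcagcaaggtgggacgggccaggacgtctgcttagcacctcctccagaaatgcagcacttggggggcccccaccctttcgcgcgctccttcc
Gabrb1 (chr5:71699682-71699931, plus strand): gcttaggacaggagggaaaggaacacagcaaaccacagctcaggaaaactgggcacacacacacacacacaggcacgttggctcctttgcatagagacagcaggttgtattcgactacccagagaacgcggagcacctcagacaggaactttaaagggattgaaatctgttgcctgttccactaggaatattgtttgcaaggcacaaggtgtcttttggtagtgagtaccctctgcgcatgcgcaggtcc
Gabrg1 (chr5:70842618-70842867, minus strand): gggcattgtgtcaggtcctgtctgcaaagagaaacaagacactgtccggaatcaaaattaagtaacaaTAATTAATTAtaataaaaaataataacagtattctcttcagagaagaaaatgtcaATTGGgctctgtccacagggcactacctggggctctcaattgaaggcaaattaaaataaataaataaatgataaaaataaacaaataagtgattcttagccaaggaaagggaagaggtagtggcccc

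The Gad1, Gad2 and Slc32a1 windows were rich in G and C, at 58.0%, 64.0% and 62.4%, with 17, 13 and 12 CG pairs. Over all 32851 RefSeq windows of this length the median was 52.4% and 6 CG pairs. The Gabrg1 window was at 35.6% with 1 CG pair, below the lower quartile of all windows (45.2% and 2), and the printed Gabrb1 window at 50.8% with 6. The window of the upstream Gabrb1 start was at 64.4% with 18, and those of Gabra2 and Gabra4 at 70.0% with 18 and 61.2% with 12, so base composition did not follow role. TAATTA occurred in 4.84% of all windows and, among the 5 printed, in the Gabrg1 window, as 2 overlapping copies. CACCTG occurred in 17.2% of all windows and, among those printed, in the windows of Gad1 and Slc32a1. TATAAA was found in 12.4% of all windows and, of those printed, once in Gad1, and GGGCGG in 32.7% and once in Gad1. CCAAT was found in 33.8% of all windows and, of those printed, once each in Gad2 and Gabrg1. Windows not printed held matches as well. CACCTG occurred in Gabra2 and Gabrb2, GGGCGG and CCAAT in Gabra2, Gabra4 and Gabrb2, and TATAAA in Gabrb2. The printed Gabrb1 window held none of the 5. Gabra4 and Gabrb1 are read from opposite strands, and their nearest annotated starts lie 387 bases apart. Each is read towards the other's start, so those bases lie within both genes and are not a shared upstream stretch.

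Gad1 was lowest in DIEC_GFP, where its intensities were 145, 166, 182 and 20. They were 221, 445, 599 and 362 in SEZ_GFPprom, 781 and 459 in SEZ_Prom, 733 and 1199 in SEZ_GFP, and 1278 and 1115 in SEZ_CD24. No DIEC_GFP array reached the lowest SEZ array, and SEZ_GFPprom lay below SEZ_GFP and SEZ_CD24 without overlap. The group means in that order were log2 6.60 ± 1.52 (SD, n = 4), 8.58 ± 0.61 (n = 4), 9.23 ± 0.54 (n = 2), 9.87 ± 0.50 (n = 2) and 10.22 ± 0.14 (n = 2), with an adjusted p of 0.0226 over the groups. Gad1 was 12.3-fold higher in SEZ_CD24 than in DIEC_GFP (log2 interval of 95% for DIEC_GFP minus SEZ_CD24, -5.30 to -1.95, adjusted p = 0.0108) and 9.69-fold higher in SEZ_GFP (adjusted p = 0.0234). Its 3.95-fold and 6.19-fold differences from SEZ_GFPprom and SEZ_Prom missed the threshold (adjusted p = 0.0622 and 0.0973). Between neighbouring groups in the order no difference passed, and that of SEZ_CD24 over SEZ_GFP was 0.35 (interval -1.59 to 2.29). Without DIEC_GFP replicate 4, whose value was 20, DIEC_GFP minus SEZ_CD24 shrank from -3.63 to -2.87 on the log2 scale (adjusted p = 0.00152) and DIEC_GFP minus SEZ_GFP from -3.28 to -2.52 (0.00370). Also without it the differences from SEZ_GFPprom and SEZ_Prom passed (adjusted p = 0.0366 and 0.0292), at -1.22 and -1.87 on the log2 scale, as did that of SEZ_CD24 over SEZ_GFPprom (0.0222). The difference over the groups was lost without SEZ_CD24 replicate 1 (0.0523), SEZ_CD24 replicate 2 (0.0512) or SEZ_GFP replicate 2 (0.0511). That from SEZ_CD24 was lost without either SEZ_CD24 array (0.0728 and 0.0703), and that from SEZ_GFP without either SEZ_GFP array (0.0925 and 0.215).

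Gad2 passed in more comparisons than any other of the 8 genes. Its intensities were 51, 31, 48 and 27 in DIEC_GFP, 62, 107, 185 and 92 in SEZ_GFPprom, 147 and 158 in SEZ_GFP, 237 and 157 in SEZ_Prom, and 247 and 295 in SEZ_CD24. The DIEC_GFP arrays all lay below every SEZ array, with DIEC_GFP replicate 4 close to replicate 2. The means were log2 5.24 ± 0.46 (SD, n = 4), 6.69 ± 0.65 (n = 4), 7.25 ± 0.07 (n = 2), 7.59 ± 0.42 (n = 2) and 8.08 ± 0.18 (n = 2) in the same order (adjusted p = 0.00262 over the groups). Gad2 was the only member to pass in the comparison of the diencephalic sort with each of the SEZ sorts. It was 7.13-fold higher in SEZ_CD24 (adjusted p = 0.00105), 5.10-fold in SEZ_Prom (0.00856), 4.03-fold in SEZ_GFP (0.00930) and 2.72-fold in SEZ_GFPprom (0.0144), comparisons that share the DIEC_GFP arrays. The difference from SEZ_CD24 passed under all 28 other settings that gave a value, at -3.54 to -2.67 on the log2 scale. That from SEZ_GFP was lost without either SEZ_GFP array (0.0676 and 0.100) and that from SEZ_Prom without SEZ_Prom replicate 1 (0.112). SEZ_CD24 was also 2.62-fold above SEZ_GFPprom, at an adjusted p of 0.0479 that rose above the threshold under 19 of 28 other settings, among them leaving out any 1 array other than DIEC_GFP replicate 4 or SEZ_GFPprom replicate 3 (0.0521 to 0.256). Neighbouring SEZ groups did not pass.

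A second Gad2 probe set repeated the order of the extremes. It read 50, 43, 15 and 17 in DIEC_GFP, 50, 83, 65 and 110 in SEZ_GFPprom, 229 and 233 in SEZ_GFP, 336 and 144 in SEZ_Prom, and 341 and 628 in SEZ_CD24 (adjusted p = 0.00208 over the groups). On it the SEZ sorts for single markers, at 144 to 628, lay wholly above the double sort, at 50 to 110, and SEZ_CD24 was 17.0-fold above DIEC_GFP (adjusted p = 0.000849). The difference between SEZ_GFPprom and DIEC_GFP was 2.71-fold and missed the threshold (adjusted p = 0.0573). The second Gad1 probe set was dim, at 12 to 31 on all arrays, and had the same highest and lowest groups. On it DIEC_GFP and SEZ_GFPprom both read 12 to 15, with means of log2 3.75 and 3.77, so it did not separate those groups.

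Slc32a1, the vesicular transporter, had the widest spread within the diencephalic sort. DIEC_GFP read 233, 44, 152 and 14, while SEZ_GFPprom read 373, 331, 502 and 324, SEZ_GFP 562 and 668, SEZ_Prom 712 and 694, and SEZ_CD24 520 and 1125. All SEZ arrays stood above all DIEC_GFP arrays, and every single-marker SEZ array stood above every double-sorted one. No difference between SEZ sorts passed for Slc32a1, and that of SEZ_GFP over SEZ_GFPprom was 0.70 on the log2 scale (interval -1.19 to 2.59). The means were log2 6.09 ± 1.83 (SD, n = 4), 8.56 ± 0.29 (n = 4), 9.26 ± 0.18 (n = 2), 9.46 ± 0.03 (n = 2) and 9.58 ± 0.79 (n = 2), listed as the intensities were (adjusted p = 0.0334 over the groups). Slc32a1 was 11.2-fold higher in SEZ_CD24 than in DIEC_GFP (adjusted p = 0.0243), 8.97-fold in SEZ_GFP (0.0466) and 5.51-fold in SEZ_GFPprom (0.0433). The 10.3-fold difference from SEZ_Prom, which has 2 arrays, missed the threshold (0.0604) and passed without DIEC_GFP replicate 1 (0.0217), 3 (0.0475) or 4 (0.0393). The size of these differences depended on single DIEC_GFP arrays. Without replicate 4, at 14, DIEC_GFP lay below SEZ_CD24, SEZ_GFP, SEZ_GFPprom and SEZ_Prom by log2 differences of -2.72, -2.40, -1.70 and -2.60, in place of -3.48, -3.16, -2.46 and -3.36. Without replicate 1, at 233, they were -4.07, -3.75, -3.05 and -3.95.

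The Slc32a1 calls lay near the threshold. Those against SEZ_GFP and SEZ_GFPprom each held only without DIEC_GFP replicate 1, 3 or 4 and were lost without any other single array (adjusted p up to 0.270 and 0.114). That against SEZ_CD24 was lost without DIEC_GFP replicate 2 (0.0547), SEZ_CD24 replicate 1 (0.0615) or SEZ_CD24 replicate 2 (0.191). The difference over the groups was lost without DIEC_GFP replicate 2 (0.0957), SEZ_CD24 replicate 2 (0.0657), either SEZ_GFP array (0.0599 and 0.0650), SEZ_GFPprom replicate 1, 2 or 4 (0.0548, 0.0552 and 0.0514) or either SEZ_Prom array (0.0665 and 0.0650). Of the 4 Slc32a1 probe sets, 3 never reached an intensity of 100, and DIEC_GFP was the lowest group on all 4. The 3 dim ones missed the threshold over the groups (adjusted p = 0.330, 0.220 and 0.464). Their highest group was SEZ_GFPprom or SEZ_Prom.

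**Figure D1:**
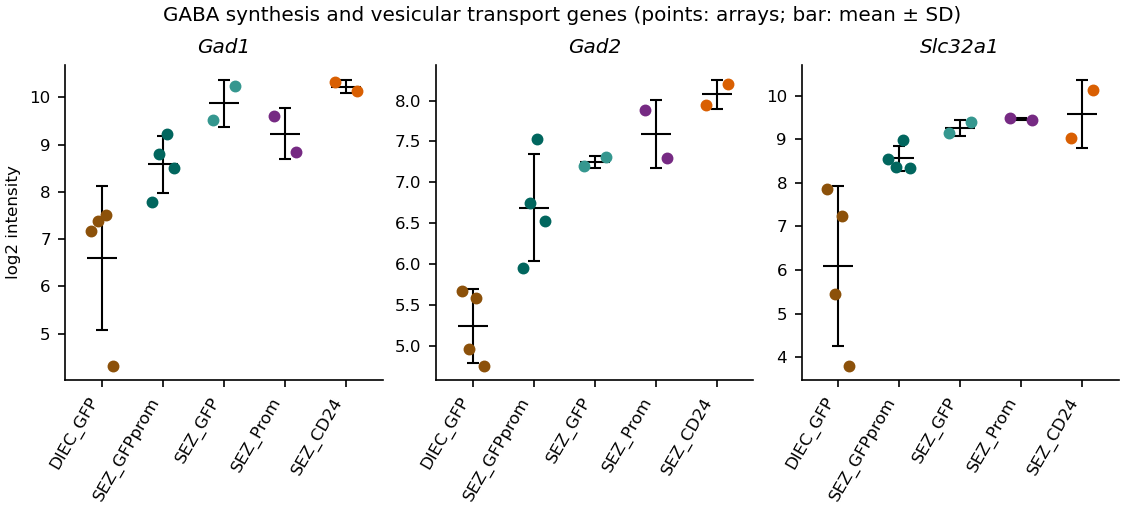
Log2 intensity of the brightest probe set of Gad1, Gad2 and Slc32a1 on each array (points), with the mean and SD of each sort group (bars). The DIEC_GFP points lie below every SEZ point for all 3 genes, and replicate 4 of that group is the lowest point in each panel (intensities 20, 27 and 14).

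Gad1, Gad2 and Slc32a1 moved together across the arrays. Over the 14 arrays, which fall into 5 groups and so are not independent points, the log2 values of Gad1 and Gad2 correlated at r = 0.91, those of Gad1 and Slc32a1 at 0.91 and those of Gad2 and Slc32a1 at 0.89. The genes nearest to Gad1 among 11270 with a mean intensity of at least 32 were Celf2 (r = 0.959), an RNA-binding splicing regulator, Myh10 (0.927), a non-muscle myosin, and Pkia (0.924), an inhibitor of protein kinase A. Those nearest to Gad2 were Dbn1 (0.952), the actin-binding protein drebrin, Add2 (0.944), an adducin of the membrane skeleton, and Bcl11b (0.943), a zinc finger transcription factor. Those nearest to Slc32a1 were Chd3 (0.948), a chromatin remodeller, the ribosomal protein gene Rps4x (0.944) and Stmn3 (0.940), of the stathmin family.

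Markers of several cell types moved with these 3 genes. The summed intensity of 8 measured transcription factor genes of GABAergic fate was 302 to 509 in DIEC_GFP, 2099 to 3224 in SEZ_Prom, 2995 to 4110 in SEZ_GFPprom, 7140 to 7461 in SEZ_GFP and 5740 to 10347 in SEZ_CD24. Dlx1, a homeobox gene of that list, stood at 45, 10, 7 and 35 in DIEC_GFP and at 1890 and 3993 in SEZ_CD24. Neuroblast sums were 9879 to 11222 in DIEC_GFP, 10545 to 14517 in SEZ_Prom, 13824 to 18513 in SEZ_GFPprom, 30523 to 33610 in SEZ_GFP and 31313 to 48660 in SEZ_CD24. In both lists SEZ_Prom lay below SEZ_GFP, and Gad1 also averaged lower in SEZ_Prom (log2 9.23) than in SEZ_GFP (9.87). Gad2 and Slc32a1 averaged no lower in SEZ_Prom than in SEZ_GFP. None of these 3 genes passed between SEZ_GFP and SEZ_Prom. SEZ_Prom was also where Drd2, the dopamine receptor gene of a class of striatal projection neuron, stood highest, at 271 and 274 against 10 to 144 in the other groups. Within DIEC_GFP, replicate 4 had the lowest Gad1, Gad2 and Slc32a1 values and the lowest sum of mature neuron markers, 1064 against 5028 to 6763. The part of any of these cell types in the differences was not tested.

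**Figure D2:**
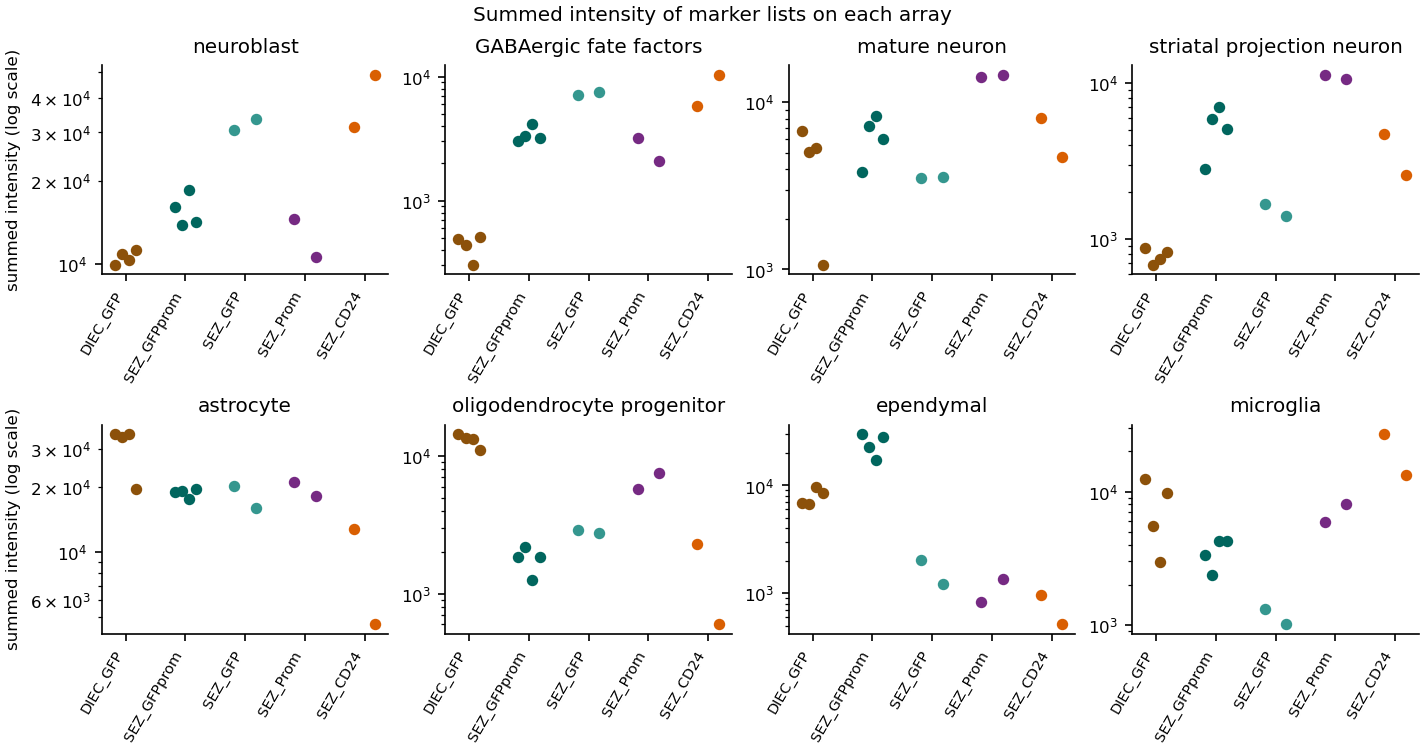
Summed intensity (log scale) of the measured genes of 8 marker lists on each array, by sort group. The GABAergic fate factor sums of DIEC_GFP (302 to 509) lie below those of every SEZ array, the CD24 sort has low ependymal sums (517 to 958) and DIEC_GFP replicate 4 has the lowest mature neuron sum (1064).

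Gabrb1, which encodes the beta-1 subunit of the GABA-A receptor, was highest in the diencephalic sort. Its intensities were 3893, 3833, 3622 and 2038 in DIEC_GFP, 785, 795, 1539 and 1769 in SEZ_GFPprom, 1036 and 1049 in SEZ_GFP, 1275 and 1449 in SEZ_Prom, and 637 and 178 in SEZ_CD24. Every DIEC_GFP array lay above every SEZ array, both SEZ_CD24 arrays lay below all others, and the other SEZ groups overlapped or lay side by side. The means were log2 11.66 ± 0.45 (SD, n = 4), 10.16 ± 0.62 (n = 4), 10.03 ± 0.01 (n = 2), 10.41 ± 0.13 (n = 2) and 8.40 ± 1.30 (n = 2) in that order (adjusted p = 0.00888 over the groups). Gabrb1 was 9.62-fold higher in DIEC_GFP than in SEZ_CD24 (adjusted p = 0.00167, log2 interval 2.19 to 4.35) and 2.84-fold higher than in SEZ_GFPprom (0.0333). The first of these, 3.27 on the log2 scale, was 4.19 without SEZ_CD24 replicate 1 and 2.35 without replicate 2 (adjusted p = 0.000993 and 0.0221). Its 3.11-fold and 2.38-fold differences from SEZ_GFP and SEZ_Prom missed the threshold (0.0702 and 0.231). That from SEZ_GFP passed without DIEC_GFP replicate 4 (0.0431) or either SEZ_CD24 array (0.0260 for each). SEZ_CD24 was also 3.39-fold below SEZ_GFPprom (adjusted p = 0.0464), a difference that rests on SEZ_CD24 replicate 2. Without that array it was -0.84 on the log2 scale (adjusted p = 0.438) and without SEZ_CD24 replicate 1 it was -2.68 (0.0117), and it was also lost without any other single array except DIEC_GFP replicate 4 and SEZ_CD24 replicate 1 (up to 0.0923). Its difference from SEZ_Prom missed the threshold (0.0823) and passed without SEZ_CD24 replicate 1 (0.0211). The call of DIEC_GFP against SEZ_GFPprom was lost without DIEC_GFP replicate 1 (0.0811), 2 (0.0866) or 3 (0.0684), or SEZ_GFPprom replicate 1 (0.0840) or 2 (0.0915).

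A second Gabrb1 probe set read 313, 381, 495 and 113 in DIEC_GFP, 141, 113, 34 and 128 in SEZ_GFPprom, 192 and 117 in SEZ_GFP, 211 and 260 in SEZ_Prom, and 17 and 21 in SEZ_CD24 (adjusted p = 0.00987 over the groups). Here DIEC_GFP replicate 4 fell among the SEZ arrays, and the CD24 sort was the one that stood apart, 15.1-fold below DIEC_GFP (adjusted p = 0.00232) and 12.4-fold below SEZ_Prom (0.0252). Another Gabrb1 probe set had the same highest and lowest groups and missed the threshold (adjusted p = 0.173), and the last one stayed at 5 or 6 on all arrays.

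Gabrg1, the gamma-1 subunit gene, followed the same order at its ends. It read 490, 741, 648 and 265 in DIEC_GFP, 185, 103, 70 and 203 in SEZ_GFPprom, 259 and 174 in SEZ_GFP, 203 and 70 in SEZ_Prom, and 79 and 27 in SEZ_CD24. The lowest DIEC_GFP array, replicate 4, was 265 against 259 for the highest SEZ array, and SEZ_CD24 lay wholly below SEZ_GFP and overlapped the other SEZ groups. The means were log2 8.96 ± 0.66 (SD, n = 4), 7.0 ± 0.73 (n = 4), 7.73 ± 0.41 (n = 2), 6.90 ± 1.09 (n = 2) and 5.53 ± 1.10 (n = 2) in that order (adjusted p = 0.0166 over the groups). Gabrg1 was 10.8-fold higher in DIEC_GFP than in SEZ_CD24 (adjusted p = 0.00420) and 3.90-fold higher than in SEZ_GFPprom (0.0269). The 4.19-fold difference from SEZ_Prom and the 2.35-fold difference from SEZ_GFP missed the threshold (0.103 and 0.293). The call against SEZ_CD24, a log2 difference of 3.44, was lost without SEZ_CD24 replicate 2 (2.66, adjusted p = 0.0680) and was 4.21 without replicate 1 (0.00695). That against SEZ_GFPprom was lost without DIEC_GFP replicate 1 (0.0570), 2 (0.0783) or 3 (0.0614), or SEZ_GFPprom replicate 2 (0.0718) or 3 (0.0687). The second Gabrg1 probe set was dim, at 7 to 54, and missed the threshold (0.126). Its highest mean was in SEZ_GFPprom (log2 4.41), beside 4.39 in DIEC_GFP, so it did not repeat the difference between those groups. Its lowest mean was in SEZ_CD24 (2.81).

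Gabrb1 and Gabrg1 correlated at r = 0.84 over the 14 arrays, and each ran against Gad2 (r = -0.72 and -0.78). The genes nearest to Gabrb1 were F3 (r = 0.954), which encodes tissue factor, the integrin subunit gene Itgav (0.950) and Abhd6 (0.947), a monoacylglycerol lipase. F3 was also among the 3 nearest to Gabrg1 (0.934), with the cell adhesion gene Lsamp (0.949) and Tril (0.930), an accessory protein of Toll-like receptors. Of the 12 astrocyte markers, 11 passed as higher in DIEC_GFP than in SEZ_CD24 and 5 as higher than in each other SEZ sort, while Gfap averaged highest in SEZ_GFPprom and Slc1a2, a glutamate transporter gene, in SEZ_Prom. Gjb6, a gap junction gene of astrocytes, read 2444, 3110, 2861 and 1050 in DIEC_GFP and 41 to 308 elsewhere, with the lowest diencephalic value again in replicate 4. Oligodendrocyte progenitor sums were likewise highest in DIEC_GFP (11020 to 14494), and the part of either cell type in the Gabrb1 and Gabrg1 differences was not tested.

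The alpha subunit genes Gabra2 and Gabra4 were highest in mean in SEZ_Prom and lowest in SEZ_CD24, and neither passed over the groups. Gabra2 read 84, 108, 66 and 19 in DIEC_GFP, 32, 27, 50 and 16 in SEZ_GFPprom, 49 and 12 in SEZ_GFP, 158 and 51 in SEZ_Prom, and 22 and 11 in SEZ_CD24 (adjusted p = 0.204). Gabra4 read 93, 238, 266 and 32 in DIEC_GFP, 53, 76, 82 and 16 in SEZ_GFPprom, 64 and 28 in SEZ_GFP, 211 and 120 in SEZ_Prom, and 44 and 19 in SEZ_CD24 (adjusted p = 0.245). In both genes DIEC_GFP replicate 4 lay within the range of the low SEZ groups while replicates 1, 2 and 3 lay above it, so that the diencephalic sort overlapped all others. Gabra2 and Gabra4 were each other's nearest gene of the 11270, at r = 0.909. Their differences between DIEC_GFP and SEZ_CD24 were 1.90 and 2.02 (log2, adjusted p = 0.165 and 0.192). Without DIEC_GFP replicate 4 they were 2.44, which passed (0.0473), and 2.64, which did not (0.0503). Of the 5 Gabra2 probe sets, 4 never reached 100.

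Gabrb2, the beta-2 subunit gene, differed little. It read 47, 82, 78 and 24 in DIEC_GFP, 38, 47, 53 and 56 in SEZ_GFPprom, 54 and 52 in SEZ_GFP, 82 and 72 in SEZ_Prom, and 79 and 139 in SEZ_CD24 (adjusted p = 0.290 over the groups). The largest difference, between SEZ_CD24 and SEZ_GFPprom, was 1.13 on the log2 scale (interval 0.19 to 2.07, adjusted p = 0.129), with no overlap between those arrays, and it passed without DIEC_GFP replicate 4 (0.0342). On 4 of its 5 probe sets SEZ_CD24 had the highest mean, in contrast to Gabrb1, for which SEZ_CD24 had the lowest mean on 3 of 4. The widest split was on a second probe set, with 170 and 163 in SEZ_CD24 and 59, 44, 56 and 10 in DIEC_GFP, which missed the threshold over the groups (adjusted p = 0.367).

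**Figure D3:**
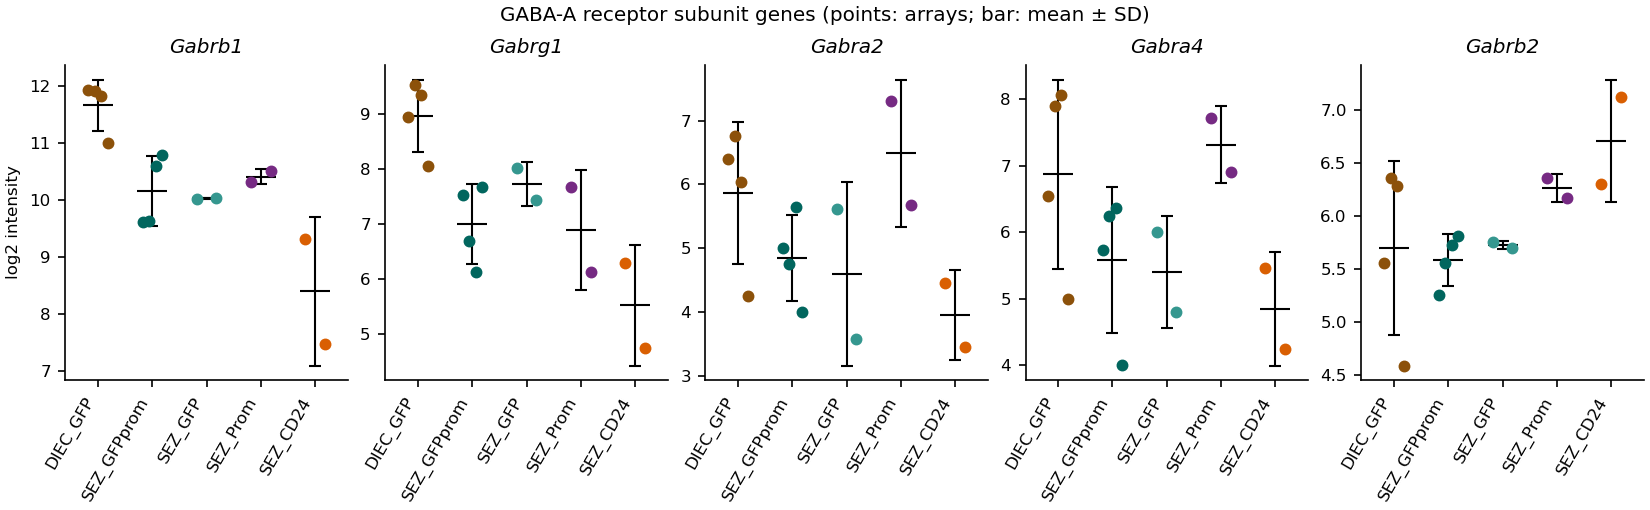
Log2 intensity of the brightest probe set of the 5 receptor subunit genes on each array (points), with the mean and SD of each sort group (bars). Gabrb1 and Gabrg1 are highest in mean in DIEC_GFP and lowest in mean in SEZ_CD24, Gabra2 and Gabra4 are highest in mean in SEZ_Prom, and Gabrb2 is highest in mean in SEZ_CD24.

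Counted by comparison, the differences of the 8 genes lay mainly between the diencephalic sort and the SEZ sorts. Between DIEC_GFP and SEZ_CD24, 5 of 8 passed, 3 lower and 2 higher in DIEC_GFP, where 10.8% of all probe sets passed, 5.07% lower and 5.72% higher. The median difference was -3.48 for the 3 synthesis and transport genes and 2.02 for the 5 receptor genes, against -0.01 over all probe sets. Of the receptor genes only Gabrb1 and Gabrg1 passed there, and Gabrb2 averaged lower in DIEC_GFP (log2 5.70) than in SEZ_CD24 (6.71). Between DIEC_GFP and SEZ_GFPprom 4 passed (2 lower and 2 higher, medians -1.98 and 1.29), where 12% of all probe sets passed, 6.43% lower and 5.6% higher. Between DIEC_GFP and SEZ_GFP 3 passed, all lower in DIEC_GFP, against 7.9% of all probe sets and 3.95% in that direction. The medians were -3.16 for the synthesis and transport genes and 1.26 for the receptor genes. Between DIEC_GFP and SEZ_Prom 1 passed, Gad2, lower in DIEC_GFP, against 3.5% of all probe sets and 2.04% in that direction. Here the medians had the same sign, -2.63 for the synthesis and transport genes and -0.44 for the receptor genes. Leaving out 1 array moved these counts. Against SEZ_CD24 3 or 2 genes passed without SEZ_CD24 replicate 1 or 2, and against SEZ_GFP 0 without either SEZ_GFP array. Against SEZ_GFPprom 1 or 2 passed without any 1 of DIEC_GFP replicates 1, 2 and 3 or SEZ_GFPprom replicates 1, 2 and 3. Against SEZ_Prom 2 passed without DIEC_GFP replicate 1 or 3, 3 without replicate 4 and 0 without SEZ_Prom replicate 1. Region and gate differ together in these comparisons other than DIEC_GFP against SEZ_GFP, and they share the DIEC_GFP arrays.

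Among the SEZ sorts, 2 of 8 genes passed between SEZ_CD24 and SEZ_GFPprom, Gad2 and Gabrb1, in opposite directions, where 9.39% of all probe sets passed, 4.29% higher and 5.1% lower in SEZ_CD24. The count was 4 without DIEC_GFP replicate 4, 1 without SEZ_CD24 replicate 1 or SEZ_GFPprom replicate 3, and 0 without any other single array. By limma with Benjamini-Hochberg adjustment 0 of 8 passed in the other 5 comparisons. All probe sets passed there at 0.371% (SEZ_CD24 against SEZ_GFP), 3.22% (SEZ_CD24 against SEZ_Prom), 1.69% (SEZ_GFP against SEZ_GFPprom), 3.86% (SEZ_GFP against SEZ_Prom) and 3.67% (SEZ_GFPprom against SEZ_Prom). Between SEZ_CD24 and SEZ_Prom 1 gene, Gabrb1, passed without SEZ_CD24 replicate 1. At an unadjusted p under 0.05 the numbers were 2 (Gabrb1 and Gabrg1), 3 (Gabra2, Gabra4 and Gabrb1), 0, 0 and 1 (Gad2). With 2 arrays in a group the intervals were wide. For Gad1 between SEZ_GFP and SEZ_Prom the interval was -1.29 to 2.58 on the log2 scale.

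**Figure D4:**
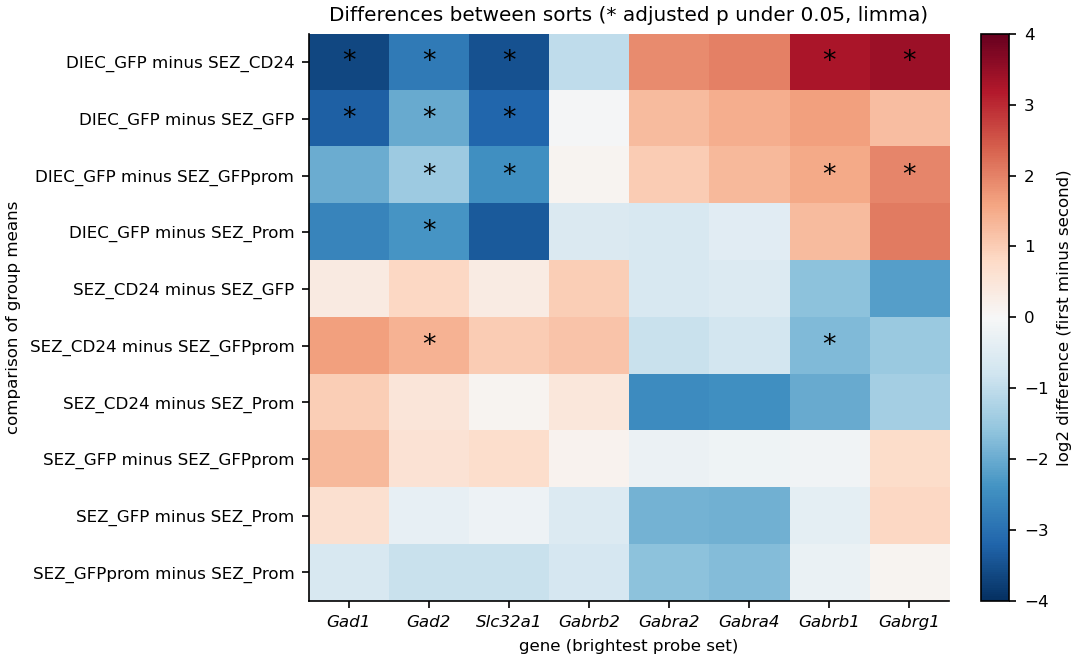
Log2 differences between group means (colour, first group minus second) of the brightest probe set of each gene in the 10 comparisons, with a star where the adjusted p from limma was under 0.05. Stars for Gad1, Gad2 and Slc32a1 are blue and those for Gabrb1 and Gabrg1 red in the comparisons of DIEC_GFP, and 5 comparisons of SEZ sorts carry no star.

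A measure of RNA quality moved with the region. The log2 ratio of 3′ to 5′ probe set intensity of 4 control transcripts averaged 3.96 ± 0.26 (SD, n = 4) in DIEC_GFP and 3.32 to 3.43 in the SEZ groups, and a higher ratio means that less of the 5′ end was read. With that ratio as a covariate 1 of the 8 genes, Gad2, still passed over the groups. In that fit the differences of Gad1, Gad2 and Slc32a1 between DIEC_GFP and SEZ_CD24 were no smaller, and Gad1 gave -5.11 (adjusted p = 0.0740). Those of Gabrb1 and Gabrg1 were 3.30 (0.0946) and 3.88 (0.108). Since the ratio follows the region, its part and that of the region cannot be told apart by this fit.

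The other genes of the GABA pathway were read from lists by role, in which 46 of 56 were measured and 10 were not analysed here. Of the 46, 13 differed over the groups, against the 22.6% of all genes given above. By role these were 1 of 10 other GABA-A subunits, 0 of 1 GABA-B subunit, 1 of 3 GABA transporters, 0 of 2 breakdown enzymes, 3 of 6 genes of glutamate supply and cofactor, 3 of 4 of alternative GABA synthesis, 3 of 16 of receptor anchoring and traffic, 1 of 3 chloride transporters and the endozepine gene Dbi.

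Slc6a11, the GABA transporter of astrocytes, gave the clearest split. It read 297, 308, 266 and 135 in DIEC_GFP and 16 to 44 on all SEZ arrays, with no overlap. It was 13.4-fold higher in DIEC_GFP than in SEZ_CD24 (adjusted p = 0.000140), 12.3-fold higher than in SEZ_GFP (0.000220), 8.84-fold higher than in SEZ_GFPprom (0.000146) and 6.59-fold higher than in SEZ_Prom (0.00230). All 4 calls held without any single array.

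Chloride transport sets whether GABA depolarises or hyperpolarises a cell, through the importer Slc12a2 and the neuronal exporter Slc12a5. Slc12a2 read 1939, 3114, 1627 and 3066 in DIEC_GFP, 2045 and 2030 in SEZ_Prom, 788 and 823 in SEZ_CD24, 487 and 465 in SEZ_GFP, and 332, 497, 311 and 735 in SEZ_GFPprom. DIEC_GFP and SEZ_Prom overlapped at a high level and the other groups stayed below 1000. The mature oligodendrocyte sums given above split the arrays in the same way, and the part of that cell type was not tested. Slc12a2 was 5.32-fold higher in DIEC_GFP than in SEZ_GFPprom (adjusted p = 0.000562) and 4.92-fold higher than in SEZ_GFP (0.00261), and these calls held without any single array. The 4.62-fold excess of SEZ_Prom over SEZ_GFPprom (0.00636) was lost without either SEZ_Prom array (0.0705 and 0.0598). Slc12a5 missed the threshold over the groups, at 640 and 922 in SEZ_Prom, 62 to 528 in DIEC_GFP and 119 to 574 in the other SEZ groups.

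Among other receptor subunits Gabrd, the delta subunit of receptors outside synapses, read 255 and 216 in SEZ_Prom and 13 to 178 elsewhere (adjusted p = 0.0144, and 0.0640 or 0.0529 without either SEZ_Prom array). It was 10.8-fold higher in SEZ_Prom than in DIEC_GFP (0.0118), a call lost without either SEZ_Prom array (0.116 and 0.0838). Its other, dim probe set gave 0.10 in DIEC_GFP minus SEZ_Prom (0.804), so the probe sets disagree. Gabra6, an alpha subunit known from cerebellar granule cells, read 13, 60, 279 and 8 in DIEC_GFP and at most 11 on any SEZ array, with most of that in 1 array. It missed the threshold.

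In glutamate supply, the glutamine transporter Slc38a1 was lowest in SEZ_Prom, at 162 and 143 against 450 to 1677 elsewhere (adjusted p = 0.000134). A filter on shared sequence left out probe sets with _s, _x or _a in their names. These letters mark sequence shared between transcripts, of the same gene or of several. Under that filter the other Slc38a1 probe set missed the threshold (0.320) and turned the sign in 3 comparisons that had passed. The Slc38a1 result therefore holds for the brightest probe set alone. The glutamate transporter Slc1a1 passed at 0.0412, and was lost without any single array other than the SEZ_CD24 arrays and SEZ_GFPprom replicate 2 (up to 0.0961). Pdxk, the kinase that makes the decarboxylase cofactor pyridoxal phosphate, passed at 0.0168 and was at 0.801 without its shared probe sets.

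Alternative routes to GABA run from putrescine, made by ornithine decarboxylase (Odc1), through aldehyde dehydrogenases. Aldh1a1, one of these and better known for retinoic acid synthesis, read 943, 761, 1339 and 177 in DIEC_GFP, 638 and 248 in SEZ_CD24, 67 and 142 in SEZ_Prom, and 8 to 23 in SEZ_GFP and SEZ_GFPprom (adjusted p = 0.000336). Its excess in DIEC_GFP over SEZ_GFP was 6.17 on the log2 scale (0.000605), 6.79 without DIEC_GFP replicate 4 and 5.78 with a floor of 10. Odc1 ran the other way, at 575 to 1159 in DIEC_GFP and 1886 and 2306 in SEZ_CD24 (adjusted p = 0.00907 over the groups). It was 2.71-fold lower in DIEC_GFP than in SEZ_CD24 (0.00470), a call lost without SEZ_CD24 replicate 2 (0.0587). Aldh9a1 passed at 0.0159 and was lost without either SEZ_CD24 array (0.116 and 0.0601).

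Of the anchoring and traffic genes, Lhfpl4, a partner of GABA-A receptors at inhibitory synapses, was 1.73-fold lower in DIEC_GFP than in SEZ_CD24 and 1.76-fold lower than in SEZ_GFPprom (adjusted p = 0.0111 over the groups). The first of these (0.0188) was lost without SEZ_CD24 replicate 2 (0.190). Shisa9, better known as an auxiliary protein of AMPA receptors, read 354, 398, 201 and 173 in DIEC_GFP and 34 and 15 in SEZ_CD24 (adjusted p = 0.00481 over the groups), and its next probe set missed the threshold (0.103). Plcl2, of a family that binds GABA receptor associated protein, passed at 0.0365 and held without any 1 of DIEC_GFP replicate 1, SEZ_GFPprom replicates 3 and 4 and the SEZ_Prom arrays, but without no other single array (up to 0.0885). Dbi, whose product binds GABA-A receptors at the benzodiazepine site, read 4923, 5082, 3270 and 5273 in SEZ_GFPprom and 1628 and 380 in SEZ_CD24 (adjusted p = 0.0240 over the groups), and was lost without SEZ_GFPprom replicate 1 (0.0503) or 2 (0.0522). The enzymes that break GABA down, Abat and Aldh5a1, did not pass.

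**Figure D5:**
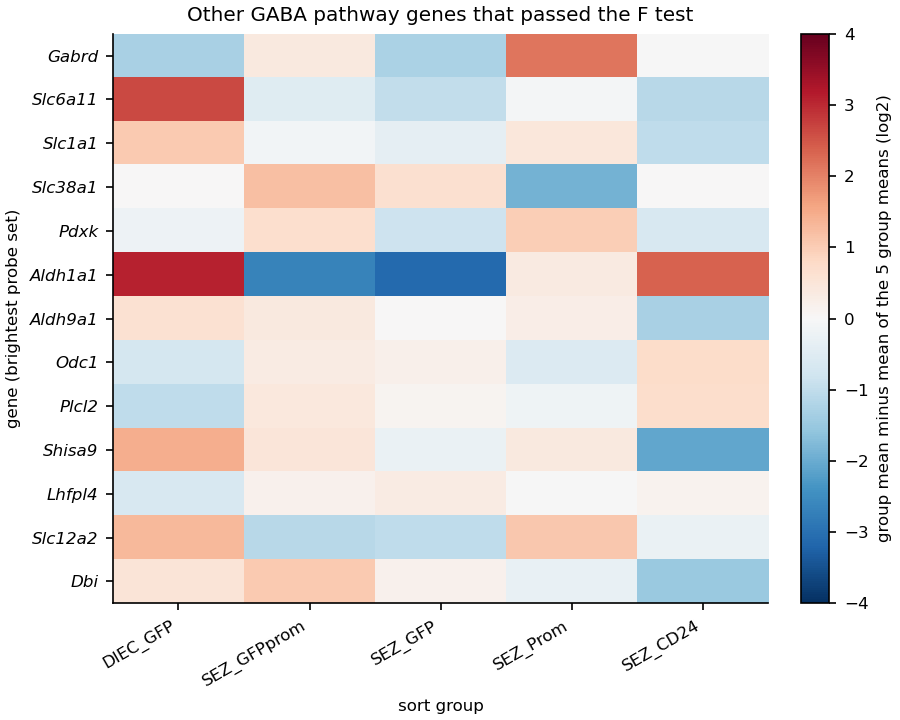
Group mean minus the mean of the 5 group means (log2, colour) for the brightest probe set of the 13 other GABA pathway genes that passed over the groups at an adjusted p under 0.05. Slc6a11 and Slc12a2 are high in DIEC_GFP, Gabrd is high and Slc38a1 low in SEZ_Prom, and Aldh1a1 is high in DIEC_GFP and SEZ_CD24.

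The transcripts tied to the sorts were read last. They are RNA, while the gates were on prominin and CD24 protein and on eGFP. They therefore cannot show how far the gates separated the cells. Gfap, whose human promoter drives the reporter, was highest in SEZ_GFPprom, with a mean of log2 8.65 ± 1.11 (SD, n = 4), and close to that in DIEC_GFP (8.55 ± 0.48, n = 4), with 7.68 ± 0.12 in SEZ_GFP, 7.64 ± 0.68 in SEZ_Prom and 5.13 ± 0.06 in SEZ_CD24 (n = 2 each). Cd24a averaged 11.47 ± 0.56 (n = 2) in SEZ_CD24 and 10.75 ± 0.19 (n = 2) in SEZ_GFP, with 8.65 to 10.26 as the means of the other groups. Prom1 averaged 8.97 ± 0.29 (n = 4) in SEZ_GFPprom and 8.02 ± 0.59 (n = 2) in SEZ_Prom, no higher than in SEZ_GFP (8.18 ± 0.36, n = 2) or DIEC_GFP (8.03 ± 0.16, n = 4), which were not sorted for prominin, and 7.49 ± 1.53 (n = 2) in SEZ_CD24. Arrays of 1 group correlated at r = 0.935 to 0.969 over all probe sets and arrays of different groups at 0.857 to 0.952, and 25.4% to 25.7% of probe sets on each array stood at an intensity of 10 or less.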

How the data were processed

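RNA of 14 sorted samples was amplified in 2 cycles and hybridised to Affymetrix mouse arrays, per the labels' protocols. The deposited values are linear intensities, made with RMA per the submitters' processing notes (no version given). The plan expected log2 values, so log2 was taken here of the deposited intensities, without a pseudocount. Depth does not apply to arrays. Of 45101 probe sets, 64 controls were left out. A gene was represented by its brightest probe set. The fit used limma 3.58.1 in R 4.3.3 (a mean per group over all 14 arrays, 9 residual and 2.305 prior degrees of freedom), with a moderated F test over the 5 groups and 10 two-sided comparisons, Benjamini-Hochberg adjusted over 45037 probe sets at 0.05, and was tested on simulated data. The genes and lists were chosen with earlier results of these data known. Named genes were the 8 members, the 3 genes nearest to each by Pearson r, up to 4 passing genes of each pathway list, and Gfap, Prom1 and Cd24a. Genes named beside these, such as Gabra6, Slc12a5, Drd2 and single markers, were chosen after their values were seen. Alternatives were other normalizations, a floor of 10, filters on dim or shared-sequence probe sets, 1 probe set or the mean per gene, a replicate block, array weights, another prior, the 3′ to 5′ covariate, the compared groups alone, and leaving out each array.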

Additional observations from a re-analysis of the deposited data

Results flagged for a closer look

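Gad1 in DIEC_GFP replicate 4 had an intensity of 20 against 145 to 182 in the other 3 arrays of the group, and the gap to the nearest array made up 0.897 of the group's log2 range, above Dixon's 95% critical value for 4 arrays. Gabrb1 on the same array read 2038 against 3622 to 3893, a share of 0.889. These were 2 of 16 gene and group pairs examined, and chance marks about 1 group in 20. The same array had the lowest Snap25 value of its group, 20 against 438 to 552.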

How the results depend on the processing

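The 3′ to 5′ covariate lowered the number of the 8 genes that passed from 5 to 1 over the groups, from 5 to 2 between DIEC_GFP and SEZ_CD24, from 3 to 0 against SEZ_GFP, from 4 to 0 against SEZ_GFPprom, from 1 to 0 against SEZ_Prom and from 2 to 1 between SEZ_CD24 and SEZ_GFPprom. The compared groups alone gave 3 between DIEC_GFP and SEZ_CD24, and 0 between DIEC_GFP and SEZ_Prom and between SEZ_CD24 and SEZ_GFPprom. Against SEZ_GFPprom DIEC_GFP gave 2 with probe sets averaged by gene or a floor of 10. Against SEZ_Prom it gave 2 with 1 probe set a gene, array weights or without the dimmest 25%, 3 without the dimmest 50% and 4 with averaged probe sets. Between SEZ_CD24 and SEZ_GFPprom the count of 2 became 4 with averaged probe sets, 1 with a trended and robust prior, and 0 with array weights, cyclic loess, a floor of 10 or without probe sets of shared sequence. Between SEZ_CD24 and SEZ_Prom the count of 0 became 1 with averaged probe sets or without the dimmest 50%. Of the pathway genes 8 in place of 13 passed without probe sets of shared sequence. In that setting signs of differences that had passed turned for Gabrd in DIEC_GFP minus SEZ_Prom (0.10) and SEZ_GFP minus SEZ_Prom (0.10). They also turned for Slc38a1 in DIEC_GFP minus SEZ_GFPprom (0.44), SEZ_CD24 minus SEZ_GFPprom (0.74) and SEZ_GFP minus SEZ_Prom (-0.028). The cause was not tested.

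Leaving out 1 array at a time gave 3 to 5 genes over the groups, 2 to 6 between DIEC_GFP and SEZ_CD24, 0 to 4 against SEZ_GFP, 1 to 5 against SEZ_GFPprom, 0 to 3 against SEZ_Prom, 0 to 4 between SEZ_CD24 and SEZ_GFPprom, 0 to 1 between SEZ_CD24 and SEZ_Prom, 0 to 0 in the other comparisons, and 10 to 19 pathway genes. Same-numbered arrays of different groups did not deviate together (22 pairs, r = -0.20 to 0.13). In groups of 2 arrays the deviations mirror each other, so some of these values repeat. The check cannot show whether arrays shared animals or a sort day. It and the replicate block used the numbers in the sample titles. The sample descriptions carry other numbers, which were not used. With a replicate block 5 genes passed over the groups, 7 between DIEC_GFP and SEZ_CD24, 2 against SEZ_GFP, 4 against SEZ_GFPprom, 1 against SEZ_Prom and 0 between SEZ_CD24 and SEZ_GFPprom. Over 21 genes, 6425 values under an alternative were compared with the reported ones. Of these 5995 kept their side of the threshold, 321 lost the call and 104 gained one. The other 5 turned sign where the reported or the alternative value passed. Sign changes where neither value passed were counted among the 5995. Groups of 2 arrays and intensities near 10, where values are rounded to few steps, limit the differences that can be seen.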
